A study of Mus musculus with 8 samples.

Results

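The glucocorticoid receptor gene Nr3c1 and 9 genes known as its targets, Fkbp5, Tsc22d3, Sgk1, Tat, Tdo2, Ddit4, Klf9, Errfi1 and Per1, were followed in bulk RNA-Seq of mouse liver. The 10 genes were chosen by name, with earlier results of these data known. All 10 were found among the 25239 gene symbols that the authors counted. Of those symbols, 12977 had enough reads to be tested, the 10 genes included. All 8 livers came from adult male mice with both Smo alleles floxed (Smo tm2Amc, C57Bl6/J background) that ate the CDA-HFD, a steatohepatitis-inducing diet without choline, with defined amino acids and rich in fat, for 6 weeks. The 4 control mice received AAV8-TBG-Luciferase and the 4 Smo-KO mice AAV8-TBG-Cre Recombinase, by tail vein 1 week before sacrifice. The TBG promoter drives the vector's gene in hepatocytes, whereas the RNA was taken from whole liver. The sample labels give the controls' genotype as WT, although these mice carry the floxed alleles too. The vector's cargo and the loss of Smo cannot be told apart, since no liver received Cre without floxed alleles.

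Glucocorticoids are adrenal steroids whose release follows the time of day, feeding and stress. The receptor waits in the cytoplasm in a complex with the chaperone HSP90 and its immunophilins, moves to the nucleus when it binds the hormone, and there binds response elements near target genes or meets other factors on DNA. In liver it is known for raising enzymes of amino acid breakdown and glucose production and for restraining inflammation, and several of its targets, among them Fkbp5 and Tsc22d3, encode proteins that dampen hormone signaling or inflammation. The comparison here was of these genes between control and Smo-KO livers.

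The DNA just before the start sites of the target genes is shown first, for the gene with the largest difference between groups (Ddit4) and for the 3 genes with a window that held the receptor's full element or an E-box. The windows are the 250 bases upstream of RefSeq starts in GRCm38.p6. The receptor's full palindromic element, AGAACA and TGTTCT with any 3 bases between them, stood in 1 of the 18 windows of the 9 target genes that had any, at 1 of the 6 starts of Sgk1, between 189 and 175 bases upstream. It stood in 3 of all 32851 windows of 27025 genes (0.00913%). Its half-site AGAACA, which is part of the full element, was in 4 windows, of Sgk1 and Tsc22d3 (16.1% of all windows hold it on either strand). The E-box CACGTG, which the clock factors CLOCK and BMAL1 can bind, was in 3 windows, of Fkbp5, Sgk1 and Per1 (6.02% of all windows). The cAMP response element TGACGTCA was in 1, at a start of Errfi1 (1.55% of all windows). A match is only a match of letters, and these windows do not reach the distal elements through which many of these genes are known to be controlled. Each sequence is written 5′ to 3′ on the gene's strand. Capitals mark the full element in Sgk1, where the E-box is left in lower case, and the E-box in Fkbp5 and Per1, and Ddit4 held none of the motifs. The windows are Sgk1 chr10:21993640-21993889 (plus strand), Fkbp5 chr17:28486150-28486399 (minus), Per1 chr11:69098699-69098948 (plus) and Ddit4 chr10:59951771-59952020 (minus).
Sgk1: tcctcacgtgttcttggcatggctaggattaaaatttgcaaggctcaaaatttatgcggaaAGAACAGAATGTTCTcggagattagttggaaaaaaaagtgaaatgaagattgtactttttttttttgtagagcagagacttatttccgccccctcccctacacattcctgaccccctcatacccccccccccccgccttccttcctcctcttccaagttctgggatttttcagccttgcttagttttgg
Fkbp5: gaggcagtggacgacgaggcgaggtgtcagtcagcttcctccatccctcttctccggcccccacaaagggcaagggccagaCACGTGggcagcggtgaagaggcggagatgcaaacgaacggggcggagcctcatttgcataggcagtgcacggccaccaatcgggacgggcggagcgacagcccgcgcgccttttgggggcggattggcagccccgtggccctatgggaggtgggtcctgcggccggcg
Per1: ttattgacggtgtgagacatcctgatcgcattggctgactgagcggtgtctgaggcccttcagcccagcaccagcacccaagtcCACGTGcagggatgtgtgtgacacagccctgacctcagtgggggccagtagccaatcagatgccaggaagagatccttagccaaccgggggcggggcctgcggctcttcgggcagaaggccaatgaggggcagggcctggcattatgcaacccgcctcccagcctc
Ddit4: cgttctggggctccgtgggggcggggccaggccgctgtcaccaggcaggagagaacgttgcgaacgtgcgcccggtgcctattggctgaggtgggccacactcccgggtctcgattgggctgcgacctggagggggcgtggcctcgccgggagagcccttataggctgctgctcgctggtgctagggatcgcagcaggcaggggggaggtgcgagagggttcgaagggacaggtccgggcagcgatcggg

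Each liver had from 8203299 to 9999732 reads on genes, fewest in Smo-KO mouse 3. In an exact permutation test the totals of the groups differed with a two-sided p of 0.257 (4 livers each). Levels are given in CPM, read counts scaled to a common library size with TMM factors, and 3 reads amount to between 0.297 and 0.366 CPM. The 10 genes had from 33 to 11252 reads in any liver, so all lie far above that level. Smo itself was lower in every Smo-KO liver (3.93 to 5.67 CPM) than in every control liver (8.17 to 8.74 CPM). The summed level of 5 hepatocyte markers, of which Alb was the most abundant, ran from 29200 to 33500 CPM in control livers and from 29400 to 31200 CPM in Smo-KO livers, and all 5 were tested. The p-values compare separate mice. In whole liver, fewer cells of a type and less RNA per cell cannot be told apart.

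Over the 10 genes there was no common direction. The mean level was higher in Smo-KO livers for 4 (Fkbp5, Tdo2, Klf9 and Per1) and lower for 6, and the median log2 fold change was 0.00, the same as over all genes tested, of which 49.9% were higher and 50.1% lower. Nr3c1 and Errfi1 lay within 0.01 of 0, and the sign of Errfi1 flipped with other size factors, a stricter filter or DESeq2. By edgeR's quasi-likelihood test 0 of the 10, and 0% of all genes, had an adjusted p under 0.05. The Wald test of DESeq2 called 1 of the 10, Ddit4 (lower), against 1.26% of all genes called in either direction and 0.647% of all genes called lower. In edgeR's test 1 of the 10 had an unadjusted p under 0.05, against 13.8% of all genes. In 1 of the 10, again Ddit4, the values of the groups did not overlap, against 7.37% of all genes (3.03% higher and 4.34% lower in Smo-KO livers). With 10 genes, each of these counts of 1 is a single gene, Ddit4.

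**Figure D1:**
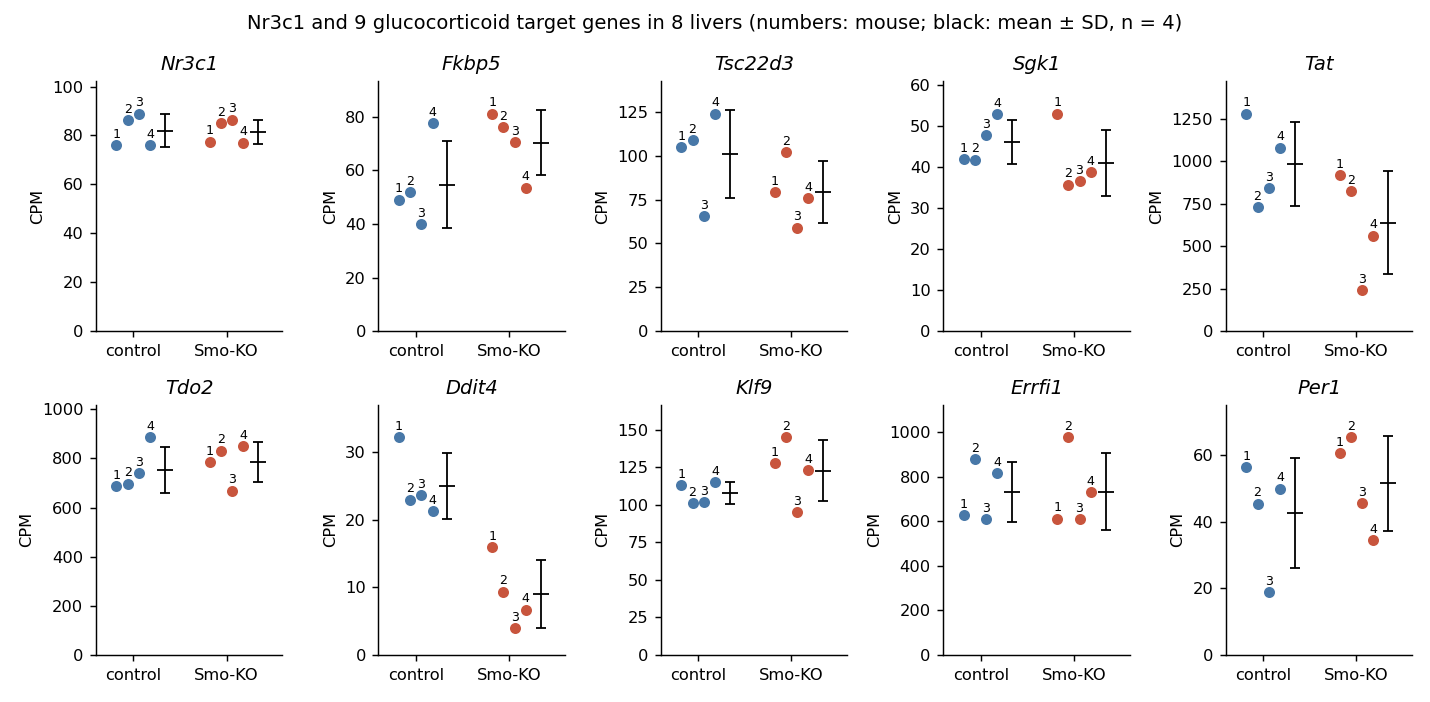
Level of each gene in CPM (vertical axes, each from 0) in 4 control livers (blue) and 4 Smo-KO livers (red), numbered by mouse, with mean and SD beside them in black. Only in the Ddit4 panel do the groups not overlap: the control livers lie between 21.3 and 32.2 CPM and the Smo-KO livers between 4.02 and 15.9 CPM.

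Nr3c1, which encodes the receptor, was at nearly the same level in every liver. It stood at 76.2, 86.3, 88.9 and 76.1 CPM in control livers 1 to 4 and at 77.5, 85.0, 86.5 and 77.1 CPM in Smo-KO livers 1 to 4. The groups overlapped almost completely, and its spread within the groups, a coefficient of variation of 8.2% in control and 6.01% in Smo-KO livers, was among the narrowest of the 10 genes. The log2 fold change was -0.01 with a 95% confidence interval from -0.20 to 0.19 (edgeR adjusted p 0.984).

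Of 6 genes of hormone supply, 5 were tested, and none had an unadjusted p under 0.05, against 13.8% of all genes (log2 fold changes from -0.14 to -0.03). Hsd11b1, the enzyme that regenerates active corticosterone from its inert form inside hepatocytes, stood at 275 ± 26.4 CPM in control and 263 ± 6.39 CPM in Smo-KO livers (SD, 4 livers per group, log2 fold change -0.06, 95% confidence interval -0.25 to 0.13, and -0.12 without control mouse 3 to -0.02 without control mouse 2). Akr1d1, a reductase that inactivates steroids, had a log2 fold change of -0.14 (95% confidence interval -0.42 to 0.15), which ran from -0.24 without Smo-KO mouse 4 to -0.04 without Smo-KO mouse 1. Hsd11b2, which inactivates corticosterone in kidney, had 1 read in 1 control liver and 0 in the other 7 livers.

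Of 10 chaperones of the receptor complex, none had an unadjusted p under 0.05, and the largest difference was that of Ptges3, the p23 co-chaperone, at 162 ± 24.6 CPM in control and 193 ± 25.2 CPM in Smo-KO livers (log2 fold change 0.25, 95% confidence interval -0.02 to 0.52, and 0.16 without control mouse 1). St13, another co-chaperone, followed with a log2 fold change of -0.16 (interval -0.36 to 0.04), or -0.10 without Smo-KO mouse 4. Among 11 coregulators, 2 had an unadjusted p under 0.05, as did 13.8% of all genes. Crebbp, a histone acetyltransferase, had a log2 fold change of -0.42 (standard error 0.19, edgeR adjusted p 0.346). Crtc2, a coactivator of CREB that works with the receptor on fasting genes, had one of 0.28 (standard error 0.13, edgeR adjusted p 0.353), or 0.17 without control mouse 3. Among 9 transcription factors that share sites with the receptor or its hormone, Foxa1, a pioneer factor of liver, was alone with an unadjusted p under 0.05 (log2 fold change 0.44, standard error 0.19, edgeR adjusted p 0.338). Its level was 50.9 CPM in Smo-KO mouse 3 against 22.6 to 35.6 CPM in the other Smo-KO livers and 24.0 to 25.6 CPM in control livers, and without that mouse the log2 fold change of Foxa1 was 0.19 (unadjusted p 0.197, edgeR). Hnf4a, a master factor of hepatocytes, had a log2 fold change of -0.13 (interval -0.33 to 0.08), or -0.08 without Smo-KO mouse 3, and Nr3c2, the mineralocorticoid receptor that binds the same hormone, one of -0.05 (standard error 0.15).

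Of the target genes, Ddit4 had the largest difference. Ddit4 (REDD1) encodes an inhibitor of the growth kinase complex mTORC1 that is induced by glucocorticoids and by several kinds of stress. GENCODE M21 places the gene at chr10:59949669-59951834 on the minus strand of GRCm38. Its levels were 32.2, 23.0, 23.7 and 21.3 CPM in control livers 1 to 4, from 215 to 284 reads. In Smo-KO livers 1 to 4 they were 15.9, 9.38, 4.02 and 6.72 CPM, from 33 to 154 reads. Every Smo-KO liver was below every control liver, with mouse 1 nearest to the controls and mouse 3 farthest, and the Smo-KO mean was 35.9% of the control mean. The exact permutation test of the 8 values gave a two-sided p of 0.0286, the smallest that 4 mice against 4 allow. The log2 fold change was -1.46 (standard error 0.29, 95% confidence interval -2.09 to -0.83), with adjusted p 0.116 from edgeR and 0.0364 from DESeq2.

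The call on Ddit4 depended on the tool, on the filter, on a block and on single livers, while its direction did not. With the replicate number as a block, edgeR's adjusted p was 0.0457 at a log2 fold change of -1.55. Without a filter on low counts, edgeR's adjusted p was 0.0199 at the same log2 fold change of -1.46. With each mouse left out in turn in edgeR's test, the log2 fold change stayed between -1.88 and -1.23, and 1 of the 8 fits gave an adjusted p under 0.05, the fit without Smo-KO mouse 1 (log2 fold change -1.88, adjusted p 0.02). With the same livers left out in DESeq2's test, 2 of 8 fits called it, those without Smo-KO mouse 1 (adjusted p 2.84e-11) and without Smo-KO mouse 3 (log2 fold change -1.22, adjusted p 0.000322). The other 6 did not, with adjusted p up to 0.19.

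**Figure D2:**
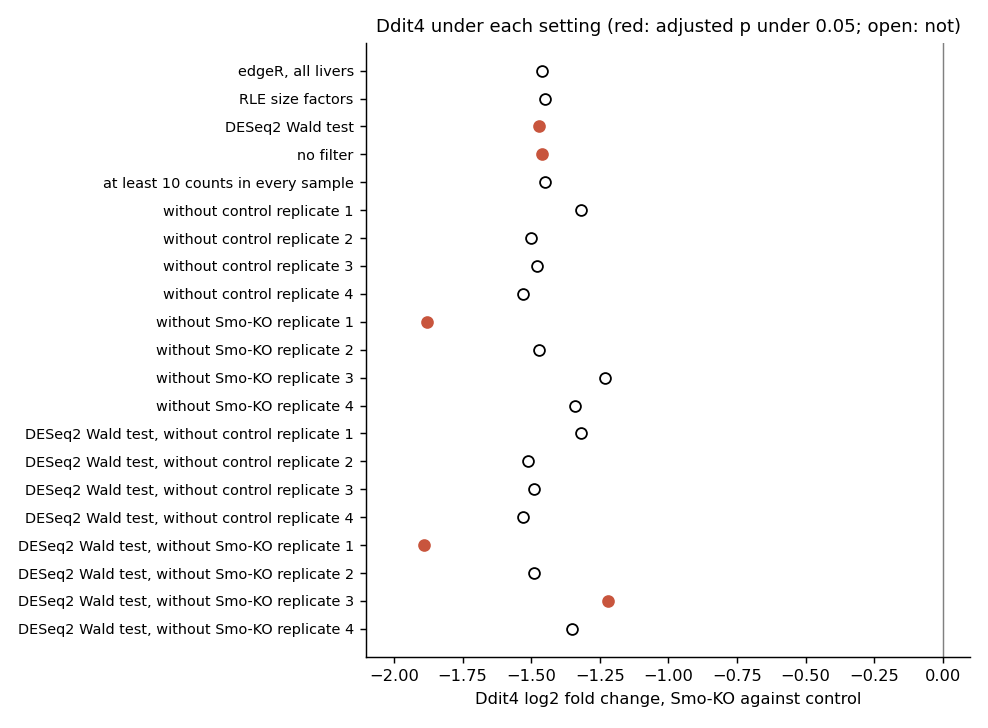
Log2 fold change of Ddit4 between Smo-KO and control livers (horizontal axis) under each tool, scaling, filter and left-out liver (vertical axis), with a point filled in red where the adjusted p was under 0.05. The points drawn lie between -1.89 and -1.22, and the filled ones belong to DESeq2 with all livers, to edgeR without a filter, and to 3 of the fits without a Smo-KO liver. The edgeR fit with the replicate number as a block (log2 fold change -1.55, adjusted p 0.0457) is not drawn.

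Tat and Tdo2 encode the classical glucocorticoid-induced enzymes of liver, tyrosine aminotransferase and tryptophan dioxygenase. Tat (chr8:109990437-109999803, plus strand) stood at 1280, 732, 841 and 1080 CPM in control livers 1 to 4 and at 920, 824, 243 and 562 CPM in Smo-KO livers 1 to 4. The groups overlapped, and Smo-KO mouse 3 was far below all other livers. Tat had a log2 fold change of -0.62 (95% confidence interval -1.30 to 0.05, adjusted p 0.397 in edgeR's test). With each mouse left out it ran from -0.85 (without Smo-KO mouse 1) to -0.35 (without Smo-KO mouse 3). Tdo2 (chr3:81957090-81976202, minus strand) did not go with Tat. It stood at 686, 698, 742 and 886 CPM in control livers 1 to 4 and at 784, 832, 669 and 850 CPM in Smo-KO livers 1 to 4, and its log2 fold change was 0.06 with an interval from -0.18 to 0.29, and from 0.02 to 0.15 (without control mouse 4) with each mouse left out.

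Fkbp5 and Tsc22d3 encode feedback proteins of the receptor, and their means lay on opposite sides. Fkbp5, an immunophilin of the HSP90 complex that lowers the receptor's affinity for its hormone (chr17:28399094-28517527, minus strand), stood at 49.1, 52.0, 39.8 and 77.7 CPM in control livers 1 to 4 and at 81.1, 76.1, 70.5 and 53.5 CPM in Smo-KO livers 1 to 4. Control mouse 4 lay among the high Smo-KO livers and Smo-KO mouse 4 next to the other controls, so the groups overlapped. Fkbp5 had a log2 fold change of 0.36 (95% confidence interval -0.03 to 0.76, adjusted p 0.40 in edgeR's test). It was 0.59 without control mouse 4 and 0.24 without control mouse 3.

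Tsc22d3 (GILZ), a leucine zipper protein that curbs inflammatory transcription (chrX:140539528-140600659, minus strand), stood at 105, 109, 65.5 and 124 CPM in control livers 1 to 4 and at 79.4, 102, 59.1 and 75.9 CPM in Smo-KO livers 1 to 4. Mouse 3 was the lowest of its group in both groups, and the groups overlapped. For Tsc22d3 the log2 fold change was -0.35 (95% confidence interval -0.76 to 0.05, adjusted p 0.424 in edgeR's test). It ran from -0.51 without control mouse 3 to -0.23 without control mouse 4. Tsc22d3 is also known to be abundant in lymphocytes, and markers of T and NK lymphocytes were lower in Smo-KO livers. Of 6 such markers 5 were tested, and all 5 had lower means, each with an unadjusted p under 0.05 (lower with such a p were 7.15% of all genes) and 4 of them called by DESeq2 (0.647% of all genes were called lower). Their level summed over the 6 markers, of which Nkg7 was the most abundant, was 50.2, 53.9, 43.5 and 59.8 CPM in control livers 1 to 4 and 23.3, 20.1, 32.9 and 34 CPM in Smo-KO livers 1 to 4. Klrb1c, the defining NK marker of the list, had at most 3 reads in any liver. In the lists of macrophage, B lymphocyte, neutrophil, endothelial, stellate and cholangiocyte markers the summed levels of the groups overlapped. The part of the T and NK lymphocytes in the levels of Tsc22d3 was not tested.

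Sgk1, Klf9 and Errfi1, which encode a kinase of ion transport and cell survival, a Krüppel-like factor and an inhibitor of EGF receptor signaling, had intervals of the difference that held 0. Sgk1 (chr10:21882184-21999903, plus strand), whose window printed above holds the full response element, stood at 42.0, 41.8, 47.8 and 52.8 CPM in control livers 1 to 4 and at 53.0, 35.7, 36.5 and 38.7 CPM in Smo-KO livers 1 to 4. Smo-KO mouse 1 was the highest liver of all, and the other 3 Smo-KO livers were below every control liver. Sgk1 had a log2 fold change of -0.17 (95% confidence interval -0.46 to 0.12), which ran from -0.31 without Smo-KO mouse 1 to -0.11 without Smo-KO mouse 2 and -0.09 without control mouse 4. Klf9 (chr19:23141226-23168134, plus strand) ranged from 101 to 115 CPM in control and from 95.4 to 145 CPM in Smo-KO livers, where mouse 3 was the lowest, with a log2 fold change of 0.19 (interval -0.06 to 0.45), which was 0.30 without Smo-KO mouse 3 and 0.10 without Smo-KO mouse 2. Errfi1 (chr4:150853919-150868892, plus strand) ranged from 610 to 879 CPM in control and from 609 to 978 CPM in Smo-KO livers, with a log2 fold change of 0.00 (interval -0.35 to 0.35).

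Per1, a clock gene that glucocorticoids also induce (chr11:69095217-69109960, plus strand), had the widest spread in control livers, a coefficient of variation of 38.7%. It stood at 56.4, 45.4, 18.8 and 49.9 CPM in control livers 1 to 4 and at 60.6, 65.3, 45.6 and 34.4 CPM in Smo-KO livers 1 to 4. Control mouse 3 was far below the others. The log2 fold change of 0.28 (interval -0.32 to 0.87) was 0.03 without that mouse, 0.14 without Smo-KO mouse 2, 0.43 without Smo-KO mouse 4 and 0.44 without control mouse 1. Of 14 other clock genes, Per2 among them, 13 were tested, and 4 had an unadjusted p under 0.05 with higher means in Smo-KO livers and 3 with lower means, against 6.7% and 7.15% of all genes. DESeq2's test called 3, Nr1d2 (log2 fold change 0.49 in edgeR's fit), Per3 (0.76) and Arntl (-1.33), and in each of these the groups did not overlap (1.26% of all genes were called by DESeq2, and in 7.37% the groups did not overlap). Arntl, whose protein is BMAL1, stood at 2.50, 5.24, 6.76 and 2.57 CPM in control livers 1 to 4, the highest of which was mouse 3, and at 1.34 to 2.16 CPM in Smo-KO mice. The hour of sacrifice is not given in the sources used here, and the part of the clock in the levels of Per1, Klf9 and the other targets was not tested.

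**Figure D3:**
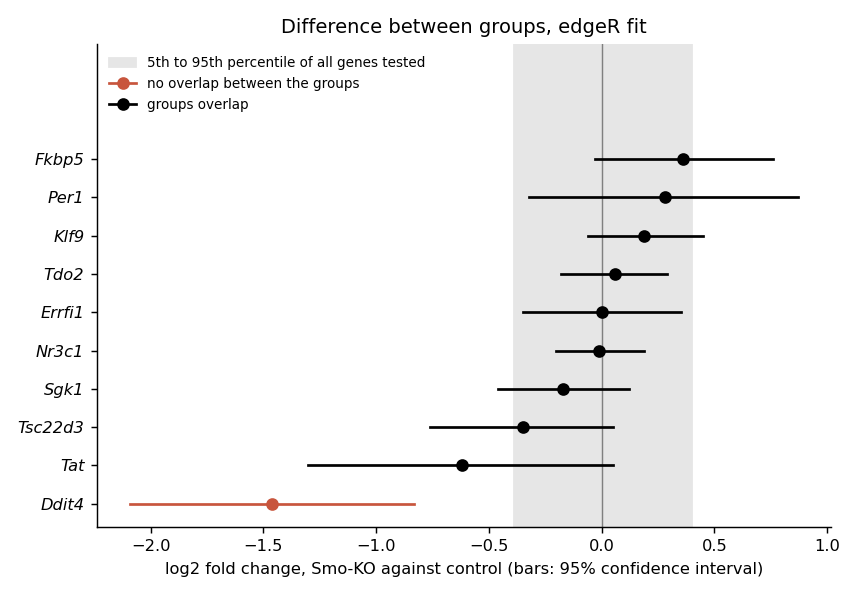
Log2 fold change of each gene between Smo-KO and control livers (horizontal axis) with its 95% confidence interval as a bar, beside the 5th to 95th percentile of all 12977 genes tested (grey). The intervals of 9 genes hold 0, and that of Ddit4 runs from -2.09 to -0.83.

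Levels between genes were compared per kilobase of exon, with exon lengths from GENCODE M21. In control livers Tat was the highest, at 409 ± 102 CPM per kilobase (SD, n = 4), followed by Errfi1 at 205 ± 37.7 and Tdo2 at 194 ± 23.7, whose ranges overlapped. Far below came Tsc22d3 at 23.2 ± 5.75 and Klf9 at 22.4 ± 1.51 CPM per kilobase, which also overlapped, and then Ddit4 at 14.3 ± 2.78. The range of Ddit4, 12.1 to 18.3, overlapped that of Tsc22d3, 15.1 to 28.6, but not that of Klf9. Nr3c1 at 10.7 ± 0.871, Sgk1 at 9.40 ± 1.07, Per1 at 7.57 ± 2.93 and Fkbp5 at 5.77 ± 1.71 CPM per kilobase were the lowest, and each overlapped with its neighbor in this order. In Smo-KO livers the mean of Ddit4 was the lowest of the 10, at 5.13 ± 2.90 CPM per kilobase, and its range, 2.29 to 9.06, overlapped those of Fkbp5, Sgk1 and Per1. The annotation that the authors counted on may hold other exons than GENCODE M21, which would shift these levels but not the comparison between groups.

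The livers of a group differed from each other in these genes, and not by the same genes. Smo-KO mouse 3 had the lowest level of its group in 6 of the 10 genes (Tsc22d3, Tat, Tdo2, Ddit4, Klf9 and Errfi1) and lay below all 4 controls in 7. Its library also had the fewest reads on genes (8203299) and the highest share of reads on no feature (9.68%). The part of this in its levels was not tested. Control mouse 3 was the lowest of its group in 4 (Fkbp5, Tsc22d3, Errfi1 and Per1), and control mouse 4 the highest in 5 (Fkbp5, Tsc22d3, Sgk1, Tdo2 and Klf9). Smo-KO mouse 1 was the lowest of its group in 0 genes. Averaged over the 9 targets, log2 CPM relative to the control mean was 0.10, -0.02, -0.29 and 0.21 in control livers 1 to 4 and 0.06, 0.04, -0.62 and -0.34 in Smo-KO livers 1 to 4, so that 2 of the Smo-KO livers lay within the control range and 2 below it. Ddit4 weighed heavily in this. Over the 8 targets without it the averages were 0.07, -0.01, -0.32 and 0.26 in the controls and 0.14, 0.22, -0.38 and -0.15 in the Smo-KO livers, and mouse 3 alone lay below the control range, by a small margin. These averages are given as a description, without a test.

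**Figure D4:**
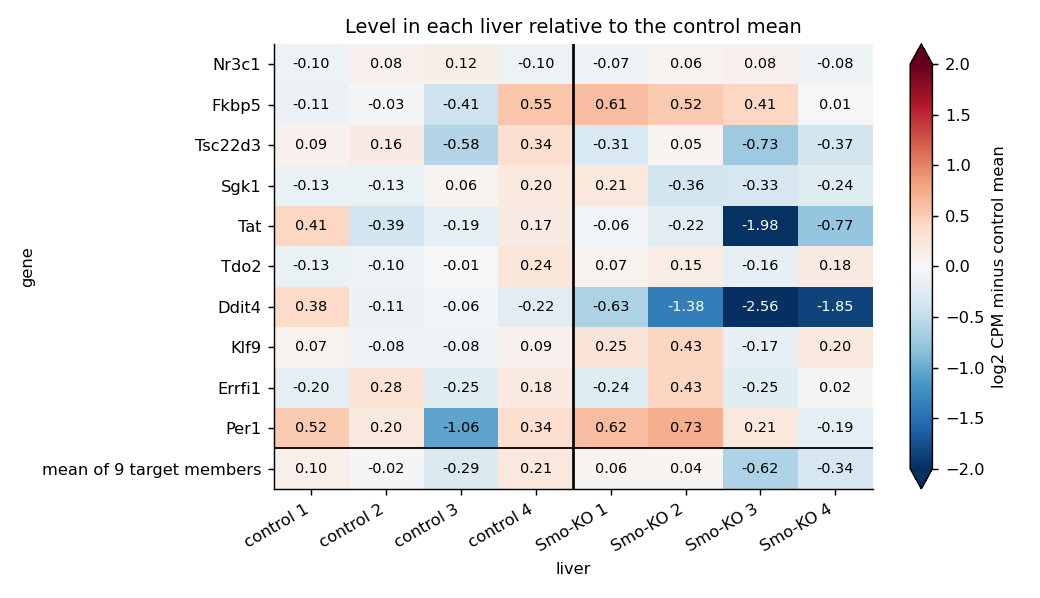
Log2 CPM of each gene (rows) in each liver (columns) minus the mean of the 4 control livers, with the number in each cell and the mean over the 9 target genes in the bottom row (the color scale ends at -2 and 2). Smo-KO mouse 3 shows the lowest values, -2.56 in Ddit4 and -1.98 in Tat, while the Nr3c1 row stays between -0.10 and 0.12.

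Outside the 10 genes, 40 further genes that glucocorticoids are known to induce were listed in 6 groups, and they lay on both sides of 0 too. Of these, 38 were tested, 22 had higher and 16 lower means in Smo-KO livers, and the median log2 fold change was 0.05 against 0.00 over all genes. In edgeR's test 6 had an unadjusted p under 0.05 with higher means and 3 with lower means (6.7% and 7.15% of all genes), and 0 passed an adjusted p of 0.05. DESeq2's test called 2 of the 38, both metallothioneins, against 1.26% of all genes. The median size of the log2 fold change, whatever its sign, was 0.24 in these 38 genes and 0.23 in the 10 genes, against 0.13 in all genes tested. As these genes were chosen with earlier results of these data known, the sizes are a description, without a test.

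Of 10 targets in carbohydrate and lipid metabolism, 2 had an unadjusted p under 0.05 with higher means (6.7% of all genes). With a lower mean there was 1, Ppp1r3c (7.15% of all genes). Pdk4, the kinase that shuts off pyruvate dehydrogenase in fasting, stood at 20.6, 29.5, 48.4 and 28.3 CPM in control livers 1 to 4 and at 45.1, 54.4, 97.8 and 31.3 CPM in Smo-KO livers 1 to 4 (log2 fold change 0.84, standard error 0.31, edgeR adjusted p 0.266). Without Smo-KO mouse 3 the log2 fold change of Pdk4 was 0.46, with an unadjusted p of 0.0876 in edgeR's test. Angptl4, a lipase inhibitor, stood at 201 ± 44.4 and 283 ± 43.8 CPM (log2 fold change 0.49, standard error 0.16, edgeR adjusted p 0.22). Both are also known targets of fatty acid-sensing PPAR receptors. The gluconeogenic enzyme genes Pck1 and G6pc were among the 6 of this list with lower means and were not among those with an unadjusted p under 0.05.

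Among 8 amino acid targets, 7 were tested and 1 had an unadjusted p under 0.05 (13.8% of all genes). This was Cps1, the first enzyme of the urea cycle, at 954, 846, 923 and 952 CPM in control livers 1 to 4 and 754, 828, 603 and 746 CPM in Smo-KO livers 1 to 4. The groups did not overlap (log2 fold change -0.33, standard error 0.10, edgeR adjusted p 0.218). Lower in Smo-KO livers without overlap were 4.34% of all genes. The next was Glul, glutamine synthetase, with a log2 fold change of 0.09, or -0.01 without control mouse 3 and 0.20 without control mouse 1. Ass1 of the same cycle was listed with 1 read in 1 Smo-KO liver and 0 reads in the other 7, and was not evaluated. The deposited counts alone do not show whether Ass1 was silent in these livers.

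Among 6 anti-inflammatory targets, Zfp36, whose protein destabilizes cytokine mRNA, had the smallest p. It stood at 199, 248, 85.8 and 90.0 CPM in control livers 1 to 4 and at 96.1, 80.5, 68.7 and 74.4 CPM in Smo-KO livers 1 to 4. Control mice 1 and 2 were high, and control mice 3 and 4 lay near the Smo-KO livers (log2 fold change -0.96, standard error 0.29, edgeR adjusted p 0.199). Without control mouse 2 the log2 fold change was -0.64. Anxa1, a mediator of the hormone's anti-inflammatory action, had a log2 fold change of 0.33 (standard error 0.16), or 0.21 without Smo-KO mouse 3.

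Of 9 targets that encode regulators, 8 were tested. Per2, a clock gene, had the smallest p, with 45.7 ± 14.2 CPM in control and 70.8 ± 10.3 CPM in Smo-KO livers (SD, 4 livers per group, with log2 fold change 0.63, standard error 0.19, edgeR adjusted p 0.205). Foxo3, a factor of fasting and atrophy, had a log2 fold change of -0.45 (standard error 0.22), or -0.29 without control mouse 2. Of 5 secreted proteins, Lcn2, an iron-siderophore binding protein of the acute phase, stood at 796 ± 102 and 964 ± 44.6 CPM (log2 fold change 0.28, edgeR adjusted p 0.267), and Orm2, an acute-phase glycoprotein, had a log2 fold change of 0.45 (edgeR adjusted p 0.366), or 0.27 without control mouse 3. The metallothionein genes Mt1 and Mt2, which zinc also induces, were higher in every Smo-KO than in every control liver, with log2 fold changes of 0.91 and 0.81 (edgeR adjusted p 0.0785 and 0.1, DESeq2 adjusted p 6.91e-07 and 0.000717). Higher in Smo-KO livers without overlap were 3.03% of all genes.

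**Figure D5:**
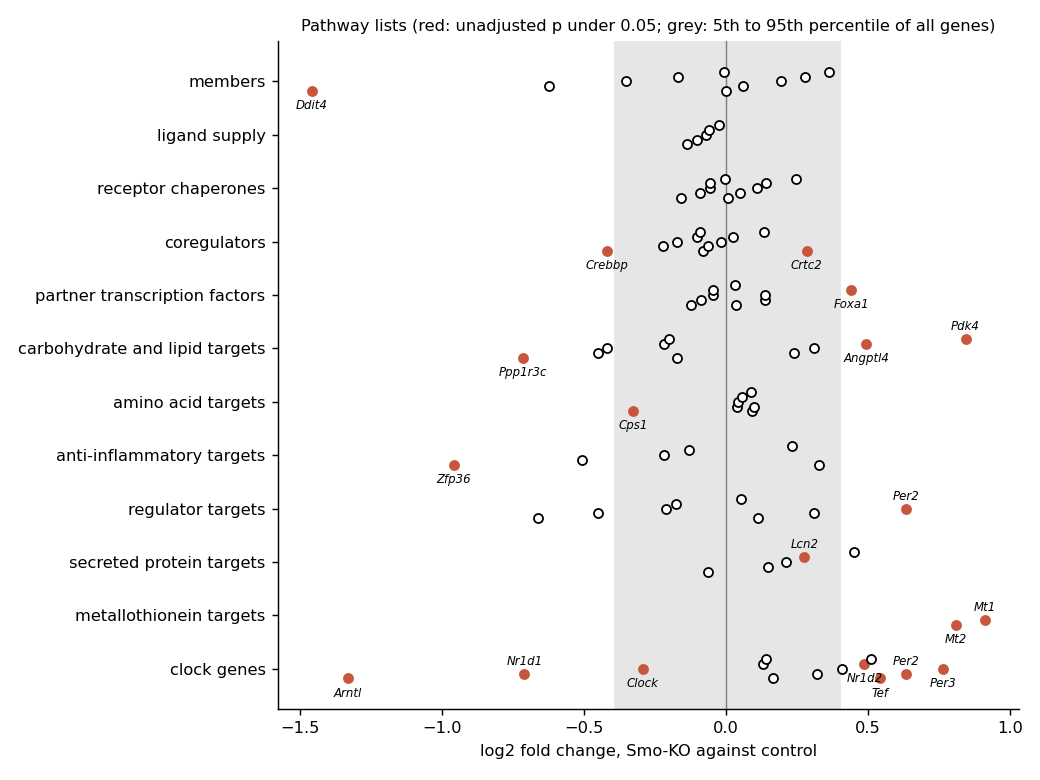
Log2 fold change between Smo-KO and control livers (horizontal axis) of every tested gene of the lists (rows), filled in red and named where the unadjusted p in edgeR's test was under 0.05, beside the 5th to 95th percentile of all genes (grey, -0.39 to 0.40). Red points stand on both sides of 0, and the lists of ligand supply and receptor chaperones have none.

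For the 2 genes with the smallest p, the most similar profiles across the 8 livers were looked up among all genes tested, by the mean absolute difference of log2 CPM after each gene was centered on its own mean. Nearest to Ddit4 were Dhrs9, a dehydrogenase of retinoids and steroids (mean difference 0.29), Ddc, aromatic amino acid decarboxylase (0.31), and Gldc, glycine decarboxylase (0.32). All 3 had their lowest level in Smo-KO mouse 3, as Ddit4 did, at 0.976, 15.0 and 34.1 CPM. They were picked for likeness to Ddit4, so this shared low level follows from the choice and is not a separate result. Nearest to Tat were Slc25a48 (0.19), Nr1d1, a repressor of the clock (0.19), and Tmprss4 (0.23). Nr1d1 stood at 28.7 CPM in Smo-KO mouse 3 and between 63.5 and 165 CPM in the other livers. The similarity includes the difference between groups, and a low level in Smo-KO mouse 3 shared with Tat follows from the choice as well. The levels of Slc25a48 and Tmprss4 were low, at most 4.42 CPM. Dhrs9 was low too, at 2.94, 0.976 and 2.13 CPM in Smo-KO livers 2 to 4.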

How the data were processed

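Bulk RNA-Seq of 8 livers was analysed, 4 per group, 1 mouse each. The authors deposited, per liver, whole-number read counts for 25239 gene symbols. The submitters' processing notes name fastp, STAR 2.7.5, featureCounts 2.0.1 and the build GRCm38, while the lists end with entries of the form that htseq-count writes. The annotation and the use of strand are not given in the sources used here. Reads on no feature (7.56% to 9.68% of each list) and on more than 1 gene (2.45% to 2.61%) were left out. No exon of the 10 genes overlapped an exon of another gene in GENCODE M21. The model had 1 term, genotype, and was fitted to the counts of all genes left by filterByExpr, with glmQLFit and glmQLFTest of edgeR 4.0.16 after TMM scaling (R 4.3.3). Adjusted p-values are Benjamini-Hochberg values across these genes. The alternative tool was DESeq2 1.42.0. Standard errors and 95% intervals of log2 fold changes come from edgeR's F statistic and its degrees of freedom, and 2 was the prior count for log2 CPM. Intervals cover the spread between these mice, and duplicates of 1 molecule cannot be recognized. Single values were compared by exact permutation tests over the 70 assignments, two-sided. No 2 libraries of a group were copies (chi-square 7.76 to 17.5 per degree of freedom over 12 pairs). The tests were checked on simulated counts.

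The 10 genes and all lists were chosen with earlier results of these data known. Named were the 10 genes, Smo, from each list the 2 genes with the smallest p and any called by either tool, and the 3 genes most like each of the 2 genes with the smallest p. Ppp1r3c, Pck1, G6pc, Nr3c2, genes without enough reads and marker genes were named outside this rule, after their values were seen. Sequences are from RefSeq (GRCm38.p6), where 9 of the 10 genes had a window, and gene positions from GENCODE M21 (GRCm38). Alternatives were other size factors, other filters, DESeq2, the replicate number as a block and each mouse left out. Leaving out each mouse in DESeq2's test of Ddit4 was added after seeing the data. Figures were drawn with matplotlib 3.10.9.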

Additional observations from a re-analysis of the deposited data

Results flagged for a closer look

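Among the genes named by rule, 68 groups of 4 livers were examined for a mouse far from the other 3, and 1 was found, where chance gives about 3.4. Foxa1 was 24.0 CPM in control mouse 4, against 25.5 to 25.6 CPM in the other control livers, a gap that is small in size and stands out only because the others were so close together.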

How the results depend on the processing

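Ddit4 was the 1 gene of the 10 with an adjusted p under 0.05 under any setting tried. The number called was 0 in edgeR's test, 0 under RLE scaling, 0 with a minimum of 10 counts per liver, and 1 with DESeq2's test (163 of all genes), 1 without a filter (61 of all genes) and 0 to 1 with each mouse left out (0 to 78 of all genes, with 78 without Smo-KO mouse 1, 5 without control mouse 1 and 4 without Smo-KO mouse 3). At an unadjusted p under 0.05 stood 1 of the 10 genes in edgeR's test, 4 without a filter (Fkbp5, Tsc22d3, Tat and Ddit4) and 1 to 3 with each mouse left out. The share of all genes at such a p was 13.8% in edgeR's main test and was not counted in the other fits. The counts at an unadjusted p under the other settings are therefore not read as results about the 10 genes. The sample labels tie same-numbered livers by the number alone. Their deviations from the group means correlated from 0.06 to 0.19, and 3 of 4 pairs exceeded 0.1. Of the livers, 3 of 4 control and 2 of 4 Smo-KO correlated best with their own number. Whether the numbers pair the livers is therefore not settled. With the replicate block, 8 of all genes and 1 of the 10 (Ddit4, log2 fold change -1.55, adjusted p 0.0457) had an adjusted p under 0.05, and 3 of the 10 an unadjusted p under 0.05. The median log2 fold change of the 10 genes stayed between -0.07 and 0.04 with each mouse left out. Changes of sign were seen in genes near 0. Errfi1 was 0.00 under RLE size factors, DESeq2 and the stricter filter and ran from -0.17 to 0.10 with each mouse left out, Nr3c1 from -0.04 to 0.04 and Glul from -0.01 to 0.20. The cause was not tested. Each of the 10 genes had 33 reads or more in every liver.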
